A study of Caenorhabditis elegans with 12 samples.

Results

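The glutathione S-transferase genes of Caenorhabditis elegans were followed in whole worms kept on vitamin D or on its vehicle. Genes were taken as members where the WBcel235 annotation gives the row's sequence name a symbol beginning with gst- and a number, gstk- or gsto-, where the row lies off chromosome III and where it held any count. Of 49 such symbols among the 27928 rows of the count table, 44 met this rule. The 4 symbols on chromosome III (gst-1, gsto-1, gsto-2 and gsto-3) were listed at 0 in every library, as were all 2800 rows of that chromosome, and gst-25 on chromosome I was also listed at 0.

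Glutathione S-transferases join the tripeptide glutathione to reactive or foreign molecules, which makes those molecules more soluble and marks them for export from the cell. In C. elegans the family is large, with many small genes lying side by side, and several are transcribed in the intestine and the hypodermis. The transcription factor SKN-1 switches on a subset of them under oxidative or xenobiotic stress, and a fluorescent reporter of gst-4 is the usual readout of that response. The kappa class genes gstk-1 and gstk-2 encode enzymes of peroxisomes and mitochondria, and gst-42 encodes an enzyme of the zeta class that acts in the breakdown of tyrosine.

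The 12 libraries came from pools of wild-type N2 worms held at 20 °C, 6 pools on the vehicle dimethyl sulfoxide (DMSO) and 6 pools on vitamin D, for 44 h. Both groups shared this genotype. The labels disagree on the dose (100 µM or 100 mM), on the worms in a pool (50 or 40) and on when treatment began (L4 larvae, or worms at 1 day of age). The study's title ties vitamin D to protein homeostasis, to longevity and to SKN-1, so the comparison asks which of these detoxification genes differed between the treatments.

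Libraries held 30203731 to 38720736 counts. Libraries of a treatment were not alike. Vehicle libraries 2 and 3 had 879 and 716 CPM (counts per 1000000, scaled by TMM factors) summed over 44 tested sperm genes. The other vehicle libraries had 4537 to 6355. Vitamin D library 5 had 4159, and the other vitamin D libraries had 1801 to 2349. Summed over 7 tested oocyte and germline genes, vitamin D library 5 had 2484 CPM and the other vitamin D libraries 1337 to 1449. Values without vehicle libraries 2 and 3 are given beside some of the members. In whole-worm RNA, fewer cells of a type and less RNA per cell cannot be told apart.

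Worms on vitamin D carried more transcript of 10 of the 39 glutathione S-transferase genes with enough counts to test, and none was called lower (4 were lower at an unadjusted p under 0.05, and DESeq2 called 2 lower). The 10 were gst-4, gst-5, gst-6, gst-7, gst-18, gst-24, gst-33, gst-38, gst-39 and gst-44, with rises from 1.93-fold (gst-38) to 4.02-fold (gst-44), and 9 of them rose by at least 2-fold. Over all 13460 tested genes 1.75% passed as higher, 1.9% as lower and 3.66% in either direction, and 0.736% were higher by at least 2-fold (edgeR quasi-likelihood test, Benjamini-Hochberg adjusted p under 0.05 over all tested genes). At an unadjusted p under 0.05 there were 22 members, and 2247 of all tested genes. The other 29 tested members divided into 15 with a positive and 14 with a negative sign, from -0.89 for gst-9 to 1.94 for gst-14 on the log2 scale. The median log2 fold change was 0.28 over the 39 members and -0.003 over all tested genes.

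**Figure D1:**
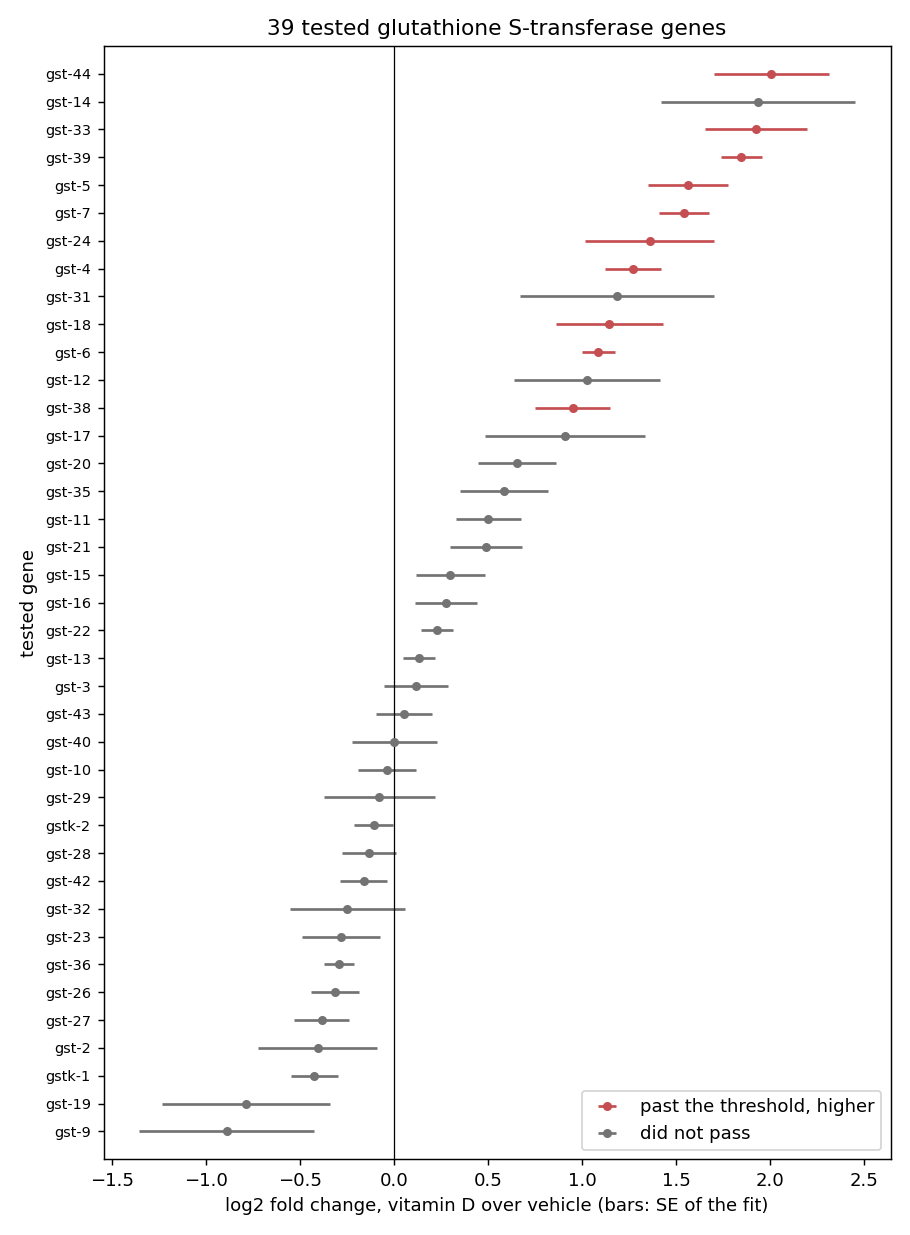
Log2 fold change of each of the 39 tested genes, vitamin D over vehicle, with the SE of the fit as bars. The 10 genes past the threshold, in red, lie between 0.95 and 2.01, and the 29 that did not pass, in grey, lie between -0.89 and 1.94.

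The gene gst-4 (K08F4.7; chromosome IV, 10142225 to 10143099 on the forward strand) had 27.5 CPM in its lowest vehicle library, a median of 30.1 and a highest value of 35.8. In the vitamin D libraries its lowest level was 52.4 CPM, its median 74.9 and its highest 104.5. The groups did not overlap, and vitamin D library 5 was the highest. The log2 fold change was 1.27 (SE 0.15), 2.42-fold (adjusted p = 0.000521 by edgeR), and it was 1.22 without vehicle libraries 2 and 3.

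The genes next to gst-4 on chromosome IV did not follow it past the threshold. gst-2 had 0.908 ± 0.356 CPM with vehicle and 0.683 ± 0.237 CPM with vitamin D (SD, n = 6), and gst-3 had 3.44 ± 0.75 and 3.73 ± 0.693 CPM. Their log2 fold changes were -0.40 (SE 0.32) and 0.12 (SE 0.17), and -0.07 and 0.20 without vehicle libraries 2 and 3. The dehydrogenase gene dhs-12 shares 65 exon bases with gst-4 on the same strand, so reads there cannot be assigned to either gene. dhs-12 itself had 53.9 ± 2.23 CPM with vehicle and 53.1 ± 3.68 CPM with vitamin D, with a log2 fold change of -0.02 (SE 0.06).

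The neighbours gst-6 and gst-7 on chromosome II both rose. gst-6 (F11G11.3; 4879891 to 4881105) had 53.7 CPM at lowest, 63.6 at the median and 69.7 at highest with vehicle, against 117.8, 134.9 and 151.8 CPM with vitamin D. gst-7 (F11G11.2; 4882062 to 4883358) had 60.3, 67.0 and 77.1 CPM with vehicle, against 149.7, 175.9 and 258.2 CPM with vitamin D. Every vitamin D library thus lay above every vehicle library for both genes, with vitamin D libraries 4 and 5 well above the rest for gst-7. Their log2 fold changes were 1.09 (SE 0.09) and 1.54 (SE 0.13), with edgeR adjusted p-values of 3.28e-05 and 5.08e-05.

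The same stretch holds gst-8, with too few counts to test (29 over the vehicle and 78 over the vitamin D libraries), and gst-9, which did not rise. gst-9 had 4.33, 5.05, 5.08 and 5.51 CPM in vehicle libraries 1, 4, 5 and 6 but 0.747 and 1.19 CPM in vehicle libraries 2 and 3. On vitamin D its levels ran from 0.982 to 2.66 CPM, between the vehicle extremes. The log2 fold change was -0.89 (SE 0.46, adjusted p = 0.377 by edgeR), and without vehicle libraries 2 and 3 it was -1.33 (SE 0.25, adjusted p = 0.00352 by edgeR). With the sperm score of each library (the mean log2 level of its sperm genes) as a covariate it was -0.34 (adjusted p = 0.425 by edgeR), so the 2 ways of handling these libraries moved gst-9 in opposite directions.

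The gene gst-5 (R03D7.6; chromosome II, 10950352 to 10951603) stands apart from the runs of neighbouring genes and shares 12 exon bases with nos-1 on the opposite strand. It had 41.4 CPM at lowest, 52.7 at the median and 81.1 at highest with vehicle. On vitamin D the values were 119.9, 163.1 and 244.4 CPM, with library 4 the highest. The groups did not overlap although vehicle libraries 2 and 3, at 73.7 and 81.1 CPM, were above the other vehicle libraries (41.4 to 59.1 CPM). The log2 fold change was 1.56 (SE 0.21, adjusted p = 0.00167 by edgeR), and 1.85 without those 2 libraries.

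gst-10 (Y45G12C.2; chromosome V, 2561690 to 2564645), whose enzyme conjugates the lipid peroxidation product hydroxynonenal, did not pass. Its levels were 96.2 CPM at lowest, 121.9 at the median and 155.4 at highest with vehicle, and 97.7, 118.8 and 149.5 CPM with vitamin D. The groups overlapped over nearly their whole range, with a log2 fold change of -0.04 (SE 0.16, adjusted p = 0.925 by edgeR).

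**Figure D2:**
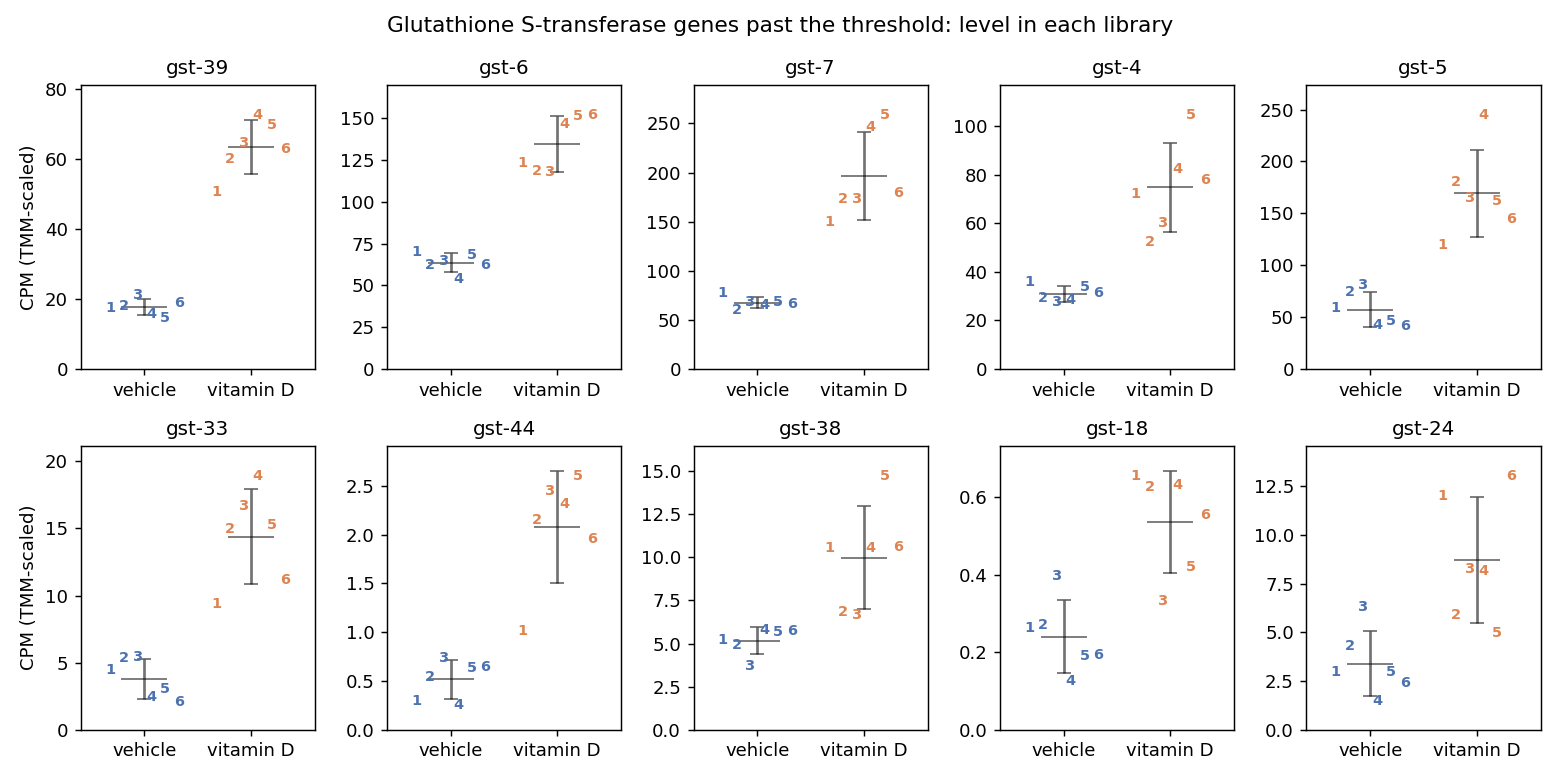
Level of each of the 10 genes past the threshold, in CPM scaled by TMM factors, with each library drawn as its replicate number (vehicle blue, vitamin D orange) and the mean and SD (n = 6) as bars. The groups are apart in 8 panels, and they overlap for gst-18 and gst-24.

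The smallest adjusted p in the family was that of gst-39 (Y53F4B.33; chromosome II, 15171163 to 15171916). Its level was 14.6 CPM at lowest, 17.8 at the median and 21.2 at highest with vehicle, and 50.7, 63.8 and 72.5 CPM with vitamin D. Every vitamin D library was above every vehicle library, a 3.60-fold rise with a log2 fold change of 1.85 (SE 0.11, adjusted p = 2.14e-06 by edgeR).

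gst-39 lies in a run of 9 members from gst-26 to gst-35 (15163817 to 15185389), of which 8 were tested and gst-39 alone passed. At the head of the run, gst-26 and gst-27 are among the most abundant transcripts of the family. gst-27 had 86.4, 110.1 and 152.8 CPM (lowest, median and highest) with vehicle and 73.6, 91.8 and 99.7 CPM with vitamin D. Its highest values were in vehicle libraries 2 and 3, and the log2 fold change of -0.38 (SE 0.15, adjusted p = 0.197 by edgeR) became -0.15 without them. With the sperm score as a covariate it was -0.43, past the threshold (adjusted p = 0.00159 by edgeR). gst-26 was likewise higher there, with 125.3 CPM as the mean of vehicle libraries 2 and 3, 86.1 CPM in the other vehicle libraries and 79.8 ± 6.64 CPM with vitamin D (SD, n = 6). Its log2 fold change was -0.31 (adjusted p = 0.229 by edgeR), -0.10 without those 2 libraries and -0.36 with the covariate (adjusted p = 0.00103 by edgeR). gst-26 and gst-27 each passed in 1 of 20 alternatives, the covariate. With the trend on exon length removed they were at -0.17 and -0.26 (adjusted p = 0.699 and 0.589 by edgeR). The other tested genes of the run, gst-28, gst-29, gst-31, gst-32 and gst-35, had log2 fold changes from -0.25 to 1.19, and gst-34 had 47 counts in all.

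The longest run on chromosome II, 9 genes from gst-20 to gst-18 (13608154 to 13630887), had 2 called members, gst-18 and gst-24, and both were close to the threshold. gst-24 (F37B1.1; 13610443 to 13611366) had 1.497, 2.97 and 6.28 CPM with vehicle and 4.96, 8.21 and 13.03 CPM with vitamin D (lowest, median and highest). The groups overlapped, with 4 of the 6 vitamin D libraries above all vehicle libraries (log2 fold change 1.36, SE 0.34, adjusted p = 0.0497 by edgeR). Without vehicle libraries 2 and 3 the log2 fold change was 1.84. The call was lost when vehicle library 1, 2, 4, 5 or 6 or vitamin D library 1, 2, 3, 4 or 6 was left out (edgeR adjusted p up to 0.125), and also with no low-count filter, with a replicate block and with the trend on exon length removed.

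gst-18 (F37B1.7; 13629799 to 13630887) was near the limit of detection, with 0.125, 0.228 and 0.397 CPM with vehicle and 0.332, 0.591 and 0.655 CPM with vitamin D, and 164 counts over all libraries. Its log2 fold change was 1.15 (SE 0.29, adjusted p = 0.0478 by edgeR), and the call was lost without vehicle library 1, 2, 4, 5 or 6 or vitamin D library 1, 2, 4 or 6 (adjusted p up to 0.114), with no low-count filter and with a replicate block. It shares 351 exon bases with gst-17 on the same strand, so reads from the shared bases cannot be assigned to either gene. gst-17 had a log2 fold change of 0.91 (SE 0.43, adjusted p = 0.31 by edgeR).

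Of the other genes of this run, gst-12, gst-14 and gst-20 had positive values without passing. gst-14 had 0.216 ± 0.143 CPM with vehicle and 0.842 ± 0.539 CPM with vitamin D (SD, n = 6), just outside the threshold at a log2 fold change of 1.94 (SE 0.51, adjusted p = 0.0607 by edgeR). gst-12 had 1.52 ± 0.976 and 3.102 ± 1.03 CPM, with a log2 fold change of 1.03 (SE 0.39, adjusted p = 0.184 by edgeR). For gst-12 vehicle libraries 2 and 3 averaged 2.71 CPM and the other vehicle libraries 0.927 CPM. Its log2 fold change was 1.75 without those 2 libraries (adjusted p = 0.00243 by edgeR) and 1.05 with the sperm score as a covariate (adjusted p = 0.00888 by edgeR). gst-20 had 12.8 ± 2.83 and 20.1 ± 6.48 CPM, with a log2 fold change of 0.66 (SE 0.21, adjusted p = 0.113 by edgeR). Vitamin D libraries 1 and 6 held both highest vitamin D values for gst-12, gst-14, gst-20 and gst-24, at 4.12 and 4.36 CPM for gst-12 and at 24.4 and 31.3 CPM for gst-20. With gst-43, outside this run, 5 of the 39 members (12.8%) had their 2 highest vitamin D values in these 2 libraries. Over all tested genes the share was 14.2%. The rest of the run, gst-15, gst-16 and gst-19, had log2 fold changes of 0.30, 0.28 and -0.79, and none passed. The gst-19 value was -0.13 without vehicle libraries 2 and 3, which averaged 1.603 CPM against 0.589 CPM in the other vehicle libraries.

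**Figure D3:**
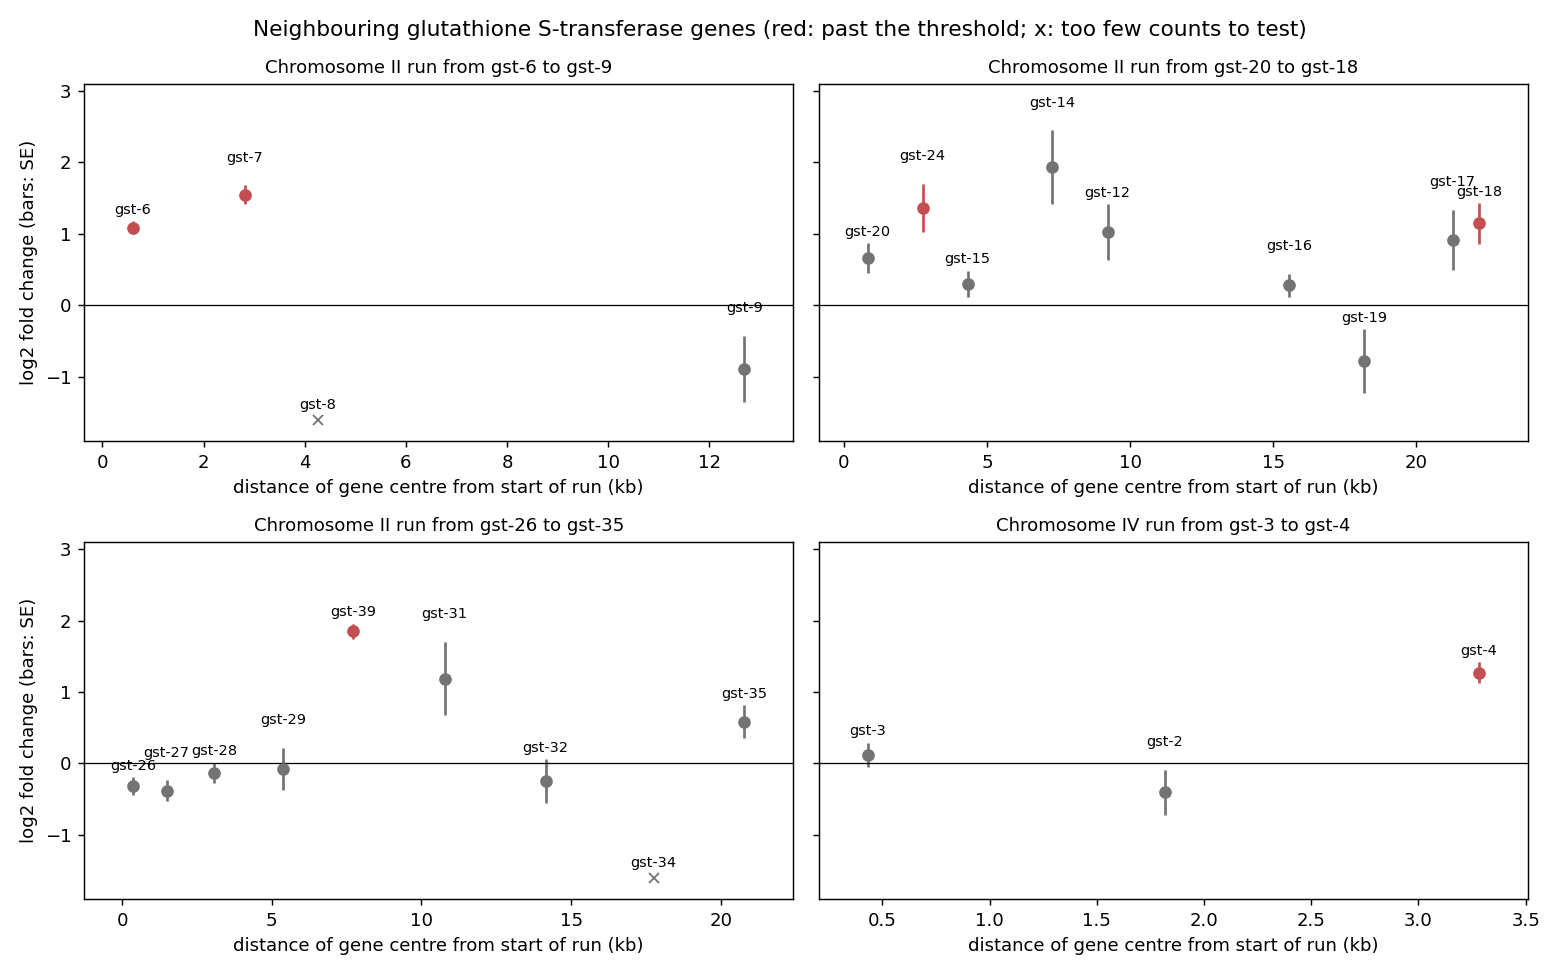
Log2 fold change (bars: SE) of genes in the 4 runs of neighbouring members, against the distance of the gene's centre from the start of its run in kilobases; red points passed the threshold and crosses at the foot mark genes with too few counts. In the run from gst-26 to gst-35 only gst-39 is red, at 1.85, and in the run from gst-3 to gst-4 only gst-4, at 1.27.

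Runs of members no more than 10000 bases apart held 25 of the 44 genes. Of the 10 called genes 6 lay in the 4 runs, among 23 tested there, and 4 lay elsewhere, among 16 tested. By chromosome, 6 of 23 tested members passed on II, 3 of 7 on V, 1 of 5 on IV, 0 of 3 on X and 0 of 1 on I. How the authors' counting treated reads that match several similar genes is a step that the sources used here do not give, so the separate levels of neighbouring copies are uncertain.

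On chromosome V, 3 members with no other member within 10000 bases rose. gst-33 (C02A12.1; 3467451 to 3468562) had 2.06, 3.74 and 5.40 CPM with vehicle and 9.39, 15.1 and 18.9 CPM with vitamin D (lowest, median and highest). gst-44 (F13A7.10; 16390891 to 16392490) had 0.250, 0.589 and 0.732 CPM with vehicle and 1.01, 2.23 and 2.60 CPM with vitamin D. Both sets of values were apart, and vitamin D library 1 was the lowest of its group for both genes. The log2 fold changes were 1.92 (SE 0.27) and 2.01 (SE 0.31), with edgeR adjusted p-values of 0.00213 and 0.00347. Without vehicle libraries 2 and 3 they were 2.27 and 2.20. gst-44 shares 9 exon bases with srd-63 on the opposite strand, a gene with 206 counts in all, and the sources used here do not give the library strand.

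gst-38 (F35E8.8; chromosome V, 15915162 to 15916070) rose less. Its levels were 3.69, 5.46 and 5.80 CPM with vehicle and 6.64, 10.6 and 14.7 CPM with vitamin D, with no overlap but with vitamin D libraries 2 and 3 close to the vehicle range. The log2 fold change was 0.95 (SE 0.20, adjusted p = 0.0222 by edgeR), and the call was lost without vehicle library 1 or vitamin D library 1, 4 or 6 (adjusted p up to 0.0574).

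Among abundant members that did not pass, gst-13 (T26C5.1; chromosome II, 9231457 to 9232344) had 98.1, 112.4 and 128.9 CPM with vehicle and 114.2, 119.8 and 139.0 CPM with vitamin D, with a log2 fold change of 0.14 (SE 0.09, adjusted p = 0.474 by edgeR). gst-36 on chromosome X had 68.4, 78.0 and 94.1 CPM with vehicle and 58.9, 65.4 and 67.7 CPM with vitamin D. Its vitamin D libraries all lay below its vehicle libraries, yet the log2 fold change of -0.29 (SE 0.08) did not pass (adjusted p = 0.0705 by edgeR). It shares 93 exon bases with scav-5 on the opposite strand, and scav-5 had a positive value (0.19, SE 0.07). The gst-36 value was -0.18 without vehicle libraries 2 and 3. It passed in 3 of 20 alternatives: without vehicle library 5 (adjusted p = 0.045), with DESeq2 (adjusted p = 0.0169) and with the sperm score as a covariate (-0.32, adjusted p = 0.00278). With the trend on exon length removed it was -0.17 (adjusted p = 0.463 by edgeR). The gene gst-11, also on X, had the reverse arrangement, with every vitamin D library (2.73 to 4.23 CPM) above every vehicle library (1.42 to 2.63 CPM), and did not pass (log2 fold change 0.50, SE 0.17, adjusted p = 0.136 by edgeR). Of the 39 members, 9 were wholly above and 1 wholly below the vehicle values, against 1.98% and 1.92% of all tested genes.

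None of the kappa and zeta class genes passed. The kappa gene gstk-1 (ZK1320.1; chromosome II) had 45.8, 53.5 and 59.4 CPM with vehicle and 28.5, 38.5 and 50.8 CPM with vitamin D, and 5 of 6 vitamin D libraries lay below all vehicle libraries. Its log2 fold change of -0.42 (SE 0.13) did not pass (adjusted p = 0.0918 by edgeR). It passed in 3 of 20 alternatives: without vitamin D library 2 (adjusted p = 0.0482), without vehicle libraries 2 and 3 (adjusted p = 0.0247) and with DESeq2 (adjusted p = 0.0328). With the trend on exon length removed it was -0.31 (adjusted p = 0.301 by edgeR), and with a replicate block -0.44 (adjusted p = 0.222 by edgeR). gstk-2 had 8.48 ± 0.948 CPM with vehicle and 7.87 ± 0.651 CPM with vitamin D (SD, n = 6), and shares 44 exon bases with elo-3 on the opposite strand. gst-42 had 67.4 ± 11.8 and 60.3 ± 7.93 CPM, a log2 fold change of -0.16 (SE 0.12, adjusted p = 0.568 by edgeR).

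The remaining tested members (gst-21, gst-22, gst-23, gst-40 and gst-43) had log2 fold changes from -0.28 to 0.49, and none passed. The 5 members under the low-count filter were gst-8, gst-30, gst-34, gst-37 and gst-41. gst-34 had 16 counts over the vehicle and 31 over the vitamin D libraries. gst-30 had 23 counts over the vehicle and 79 over the vitamin D libraries, of which 44 came from a single library. gst-37 had 2 and 21 counts, and gst-41 had 46 and 106. These values have no test.

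Compared per kilobase of exon, the order of transcript levels in the family differed between the treatments. On vehicle the most abundant were gst-10 at 173.9 ± 35.7 CPM per kb and gst-27 at 157.9 ± 39.3, followed by gst-13 at 145.8 ± 17.5 and gst-26 at 144.1 ± 31.4 (SD, n = 6). These 4 did not differ beyond their spread. On vitamin D gst-7 came first at 263.8 ± 59.9 CPM per kb and gst-5 second at 233.4 ± 58.2, which also overlapped in spread. gst-6 (176.1 ± 21.8), gst-10 (169.3 ± 33.1) and gst-13 (160.1 ± 14.1) came next. On vehicle gst-7, gst-6 and gst-5 had held places 6, 7 and 8, at 90.5, 82.9 and 79.0 CPM per kb. gst-4 moved from place 11 to place 8 and gst-39 from 15 to 9.

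**Figure D4:**
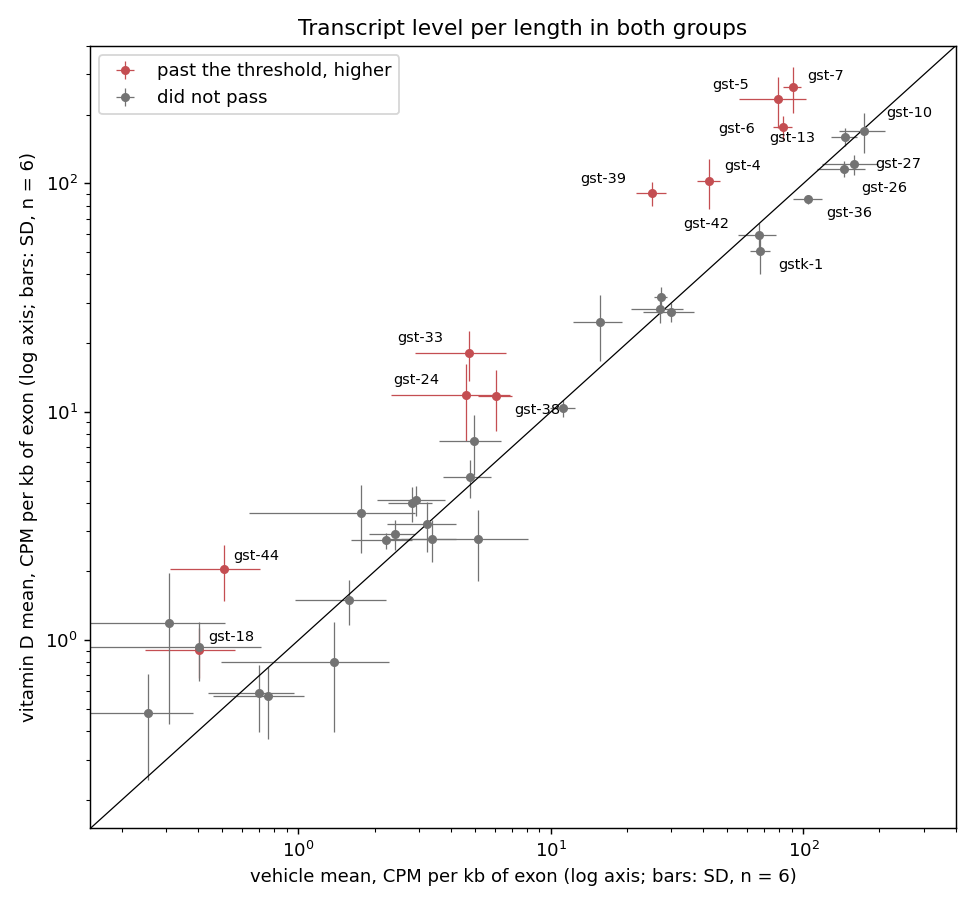
Mean level per kilobase of exon of the 39 tested genes with vehicle (x) and with vitamin D (y), both on log axes, with SD bars (n = 6) and the line of equal levels. The red points lie above the line, and gst-7, gst-5 and gst-6 pass from below to above the level of gst-10.

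Summed over the 39 tested members, the family took 881 to 1180 CPM in the vehicle libraries and 1242 to 1583 CPM in the vitamin D libraries. The 10 called genes made up 22.3% to 26.1% of that sum with vehicle and 44.2% to 56.5% with vitamin D. These shares follow from how the genes were called and carry no test. The sum over the 29 other members was 657 to 901 CPM with vehicle and 604 to 749.8 CPM with vitamin D.

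The called genes did not all peak in the same vitamin D library. Libraries 4 and 5 held both highest values for gst-4, gst-7 and gst-39. Libraries 5 and 6 held them for gst-6 and gst-38. gst-5 and gst-33 were highest in library 4, and gst-24 in libraries 6 and 1. Library 1 was the lowest vitamin D library for gst-5, gst-7, gst-33, gst-39 and gst-44, and for 16.7% of all tested genes. Among vehicle libraries, 15 of the 39 members (38.5%) had their 2 highest values in libraries 2 and 3, against 33.6% of all tested genes, and 7 (17.9%) had their 2 lowest values there, as did 4032 of the 13460 tested genes.

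**Figure D5:**
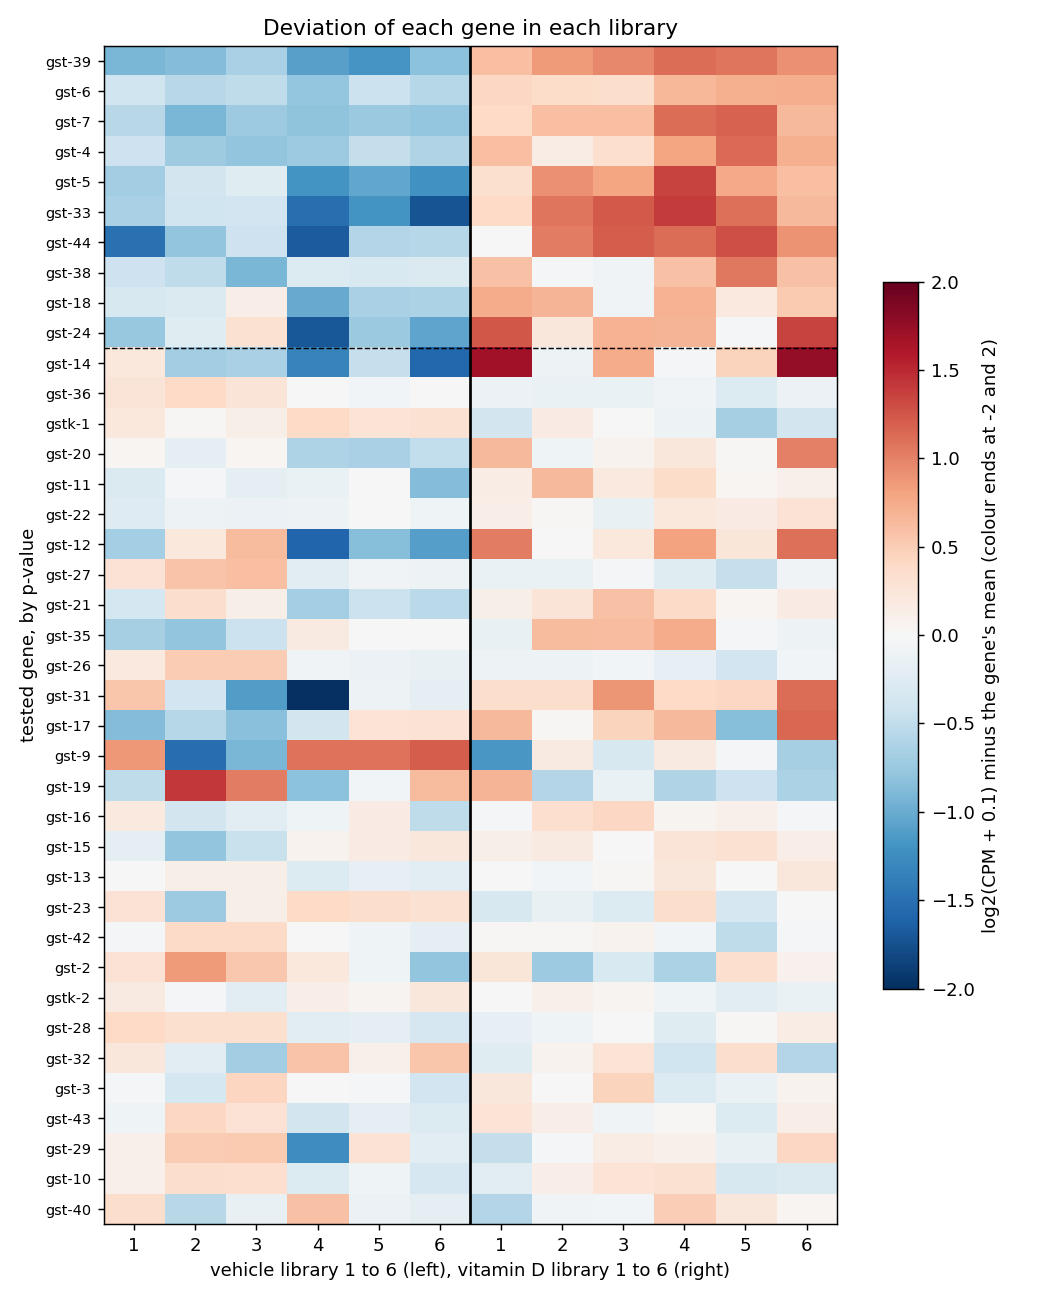
Deviation of the 39 tested genes in each library, as log2(CPM + 0.1) minus the gene's mean over the 12 libraries, with genes in order of p-value and the 10 called genes above the dashed line. In the first 6 rows every vehicle library is below and every vitamin D library above the mean, while gst-9 is low in vehicle libraries 2 and 3 and high in the other vehicle libraries.

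Without vehicle libraries 2 and 3, 16 of 39 members passed as higher and 2 as lower, but the share of all tested genes that passed rose as well, to 14.8% higher and 13.8% lower. All 10 genes called with these libraries were also called without them. With DESeq2, 12 members were higher and 2 lower (4.09% and 4.58% of all tested genes). The sperm score as a covariate gave 13 and 3 (6% and 5.79%), the 3 lower being gst-26, gst-27 and gst-36. Scaling to total counts gave 11 and 0 (3.77% and 1.66%), and removal of the trend on exon length gave 9 and 0 (1.4% and 0.461%). The 6 members added without vehicle libraries 2 and 3 were gst-11, gst-12, gst-13, gst-14, gst-20 and gst-21, and the lower ones were gst-9 and gstk-1.

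A list of genes that make, recycle or use glutathione, or pump its conjugates out of the cell, had calls in both directions. Of 28 listed genes 5 lie on chromosome III and were listed at 0, glutathione reductase gsr-1 among them. Of the 23 tested, 2 rose, 2 fell and 19 did not pass, with a median log2 fold change of 0.075. The shares over all tested genes were 1.75% higher and 1.9% lower. An unadjusted p under 0.05 was found for 12 of the 23, against 2247 of the 13460 tested genes. The genes that rose encode transporters of the family that exports glutathione conjugates: mrp-2 went from 24.2 ± 4.09 to 36.2 ± 5.18 CPM (adjusted p = 0.027 by edgeR) and mrp-7 from 42.7 ± 4.48 to 59.8 ± 10.5 CPM (adjusted p = 0.0333 by edgeR). The glutaredoxin genes glrx-10 and glrx-22, which use glutathione to reduce protein disulfides, fell by 0.25 and 0.33 on the log2 scale (adjusted p = 0.0351 and 0.0442 by edgeR). The counts for this list varied with the libraries used: 0 to 4 rose and 0 to 2 fell when single libraries were left out, with 0 higher without vehicle library 1 or 4 or vitamin D library 1, 4 or 6. gcs-1, of the first step of glutathione synthesis, had a log2 fold change of 0.30 (SE 0.08, adjusted p = 0.0707 by edgeR).

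Among 11 tested genes known from genetics to act on gst-4 expression, wdr-23 alone passed, where 1.75% of all tested genes were higher. It encodes the adaptor through which SKN-1 is degraded, and its level went from 64.2 ± 2.24 to 91.1 ± 13.4 CPM (log2 fold change 0.51, SE 0.09, adjusted p = 0.0065 by edgeR). skn-1 had a log2 fold change of 0.23 (SE 0.07, adjusted p = 0.0834 by edgeR), and the others ran from -0.13 for xrep-4 to 0.36 for elt-3. The coactivator gene mdt-15 lies on chromosome III and was listed at 0, and sknr-1, with 102 counts in all, was under the filter.

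Summed levels of markers of the intestine and the hypodermis overlapped between the groups. Summed over 13 tested intestinal markers, the vehicle libraries had 6082 to 9423 CPM and the vitamin D libraries 7077 to 8388 CPM. Over 9 hypodermal markers the sums were 5566 to 7835 and 4224 to 7341 CPM. Much of the hypodermal sum came from dpy-13 and dpy-5, with means of 2526 and 2521 CPM on vehicle. It does not show how widely some other markers varied within a group. col-19 ran from 2.65 to 370 CPM on vehicle and from 2.13 to 525 CPM on vitamin D. dpy-7 ran from 14.6 to 562 and from 164 to 441 CPM. The highest intestinal sums, 9416 and 9423 CPM, were in vehicle libraries 2 and 3. The other vehicle libraries had 6082 to 7080 CPM, so the intestinal overlap rested largely on vehicle libraries 2 and 3. Much of the intestinal sum came from asp-1 and cpr-1, with means of 3229 and 1628 CPM on vehicle. Of the intestinal markers 2 rose and 0 fell: pgp-1, which encodes a P-glycoprotein transporter, by 3.57-fold, and erm-1 by 1.15-fold, and 0 of the hypodermal markers passed. Over all tested genes 1.75% were higher. At an unadjusted p under 0.05 there were 7 of 13 intestinal, 0 of 9 hypodermal and 4 of 8 muscle markers, against 2247 of the 13460 tested genes. These went both ways: mtl-2, elt-7 and lbp-6 of the intestine and unc-27 and mup-2 of muscle were lower, and the rest were higher. Of 8 muscle markers 1 rose, unc-54 with a log2 fold change of 0.24. Of the 7 neuronal, 44 sperm and 7 oocyte and germline markers 0 passed (1, 1 and 0 at an unadjusted p under 0.05), although all 44 sperm markers had a negative sign (median -0.72). The part of sperm content in the transferase results was not tested beyond the values without vehicle libraries 2 and 3 and with the sperm score as a covariate, and all 10 calls were kept under both.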

How the data were processed

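RNA was sequenced from 12 pools of whole worms. The authors deposited a table of raw counts per gene and a table of CPM, which equals each count divided by its library's total (largest difference 2.91e-11) and was used for that check only. Per the submitters' processing notes, edgeR 3.12.1 was used; the sources used here do not give aligner, counter, strand, build or annotation. Columns were matched to samples by the labels' descriptions. Row names were matched to Ensembl's WBcel235 annotation (27187 of 27928 to a single gene), which gave symbols, coordinates and exon lengths; unmatched rows held 0.518% to 0.653% of the counts.

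Counts were fitted with edgeR 4.0.16 in R 4.3.3: filterByExpr (minimum count 10, minimum total 15), TMM factors, treatment as the only term, robust quasi-likelihood dispersions and glmQLFTest, two-sided, with Benjamini-Hochberg adjustment over 13460 genes. CPM values printed are scaled by TMM factors. SEs derive from the fit. At these depths 1 CPM before TMM scaling is about 30 to 39 reads. The series text calls the pools independent replicates, and the p-values weigh the difference between groups against the spread among them. Libraries within a group differed beyond sampling noise (chi-square over its degrees of freedom at least 7.7), but not evenly. Vehicle libraries 2 and 3 were at 9.3 from each other and at 184.6 to 352.4 from the other vehicle libraries. Vehicle libraries 5 and 6 were at 7.7 from each other, with library 4 at 30.3 and 24 from them. Vitamin D libraries 2, 3 and 4 were at 8.7 to 14.3, libraries 1 and 6 at 22.3, and library 5 was at 125.4 to 161 from the others. The fit treats the 6 pools of a group as independent, and whether the closer pools shared a step of handling was not tested. The code was tested on simulated counts.

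The members, gene lists, tests and alternatives were chosen with earlier results of these data known. The lowest, median and highest library of each group were given for every gene past the threshold, gst-4 and the 5 highest levels per kilobase. The other members are mostly given by means, ranges and counts. gst-9, gst-11, gst-12, gst-20, gst-21, gst-36 and gstk-1 were singled out after their values were seen. Alternatives covered scaling (total counts, median-of-ratios size factors), DESeq2 1.42.0, no filter, a replicate block, each library left out, vehicle libraries 2 and 3 left out, a covariate of the mean log2 level of sperm genes, and removal of each library's trend on exon length.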

Additional observations from a re-analysis of the deposited data

Results flagged for a closer look

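Of 78 groups of 6 libraries (39 genes, 2 treatments), 5 held a library far from the others of its group, where chance gives about 1 in 20. Vitamin D library 5 was the low one in 3 of them, and over all tested genes it was the lowest vitamin D library for 28.6%. It had 58.9 CPM of gst-36, with the next library at 65.0, 67.1 CPM of gst-26, with the next at 78.5, and 44.5 CPM of gst-42, with the next at 61.0. Vitamin D library 1 had 1.06 CPM of gst-19, with the next library at 0.562. Vehicle library 2 had 1.22 CPM of gst-23, with the next at 2.29. No group of the 10 genes past the threshold was among them.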

How the results depend on the processing

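Under all 20 alternatives 7 of the 10 called genes (gst-4, gst-5, gst-6, gst-7, gst-33, gst-39 and gst-44) stayed past the threshold, and no called gene changed sign. gst-38 passed in 16 of 20, gst-18 in 8 of 19 and gst-24 in 7 of 20. Members called lower numbered 2 with DESeq2, 2 without vehicle libraries 2 and 3 and 3 with the sperm score as a covariate; members called higher numbered 16 without those 2 libraries. Leaving out single libraries gave 7 to 10 members higher and 0 to 1 lower, and over all genes 146 to 308 higher (236 with every library) and 109 to 317 lower (256). All genes called numbered 507 higher with total counts, 551 higher and 616 lower with DESeq2, 2036 and 1888 without vehicle libraries 2 and 3, 807 and 779 with the sperm score, and 62 lower with the length trend removed. Total counts called 69.5% of the genes past the threshold higher, against 48.0% with TMM factors.

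Same-numbered libraries correlated at -0.418 to 0.441, and 1 of the 6 vehicle libraries correlated best with its own number. Vitamin D library 5 was the best partner of vehicle libraries 1, 4, 5 and 6. These correlations run over all genes, so they cannot show whether same-numbered libraries shared a step of handling. With a replicate block 104 genes were higher and 32 lower over all genes, 8 and 0 among members, 1 and 0 in the glutathione pathway list.

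That list had 5 higher and 1 lower with total counts, 4 higher with DESeq2, 6 higher without vehicle libraries 2 and 3, 8 higher with the sperm score, 0 lower with no filter, and, once the length trend was removed, 1 higher and 0 lower; leaving out single libraries gave 0 to 4 higher and 0 to 2 lower. Regulators of gst-4 called higher numbered 2 with DESeq2, 4 without vehicle libraries 2 and 3, 2 with the sperm score and 1 to 2 with single libraries left out.

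Sign changes were found in genes near 0: without vehicle libraries 2 and 3, gst-42 was at 0.017, gst-28 at 0.016, gst-29 at 0.218, gst-10 at 0.153 and gst-40 at -0.152; with the length trend removed, gstk-2 was at 0.015, gst-29 at 0.056 and gst-10 at 0.09; gst-10 was at 0.027 with total counts and gst-40 at -0.001 with DESeq2. With single libraries left out gst-43 ran from -0.013 to 0.148, gst-29 from -0.262 to 0.029, gst-10 from -0.111 to 0.025 and gst-40 from -0.116 to 0.141. The causes were not tested. Members under about 1 CPM, such as gst-18, rest on few reads.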
